A study of Rattus norvegicus with 8 samples.

Results

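The genes described here are 4 genes of the endothelin, nitric oxide and angiotensin systems, measured in the hearts of rats kept in chronic hypoxia and in normoxia. They are Edn1 (ENSRNOG00000014361), Nos3 (ENSRNOG00000009348), Agt (ENSRNOG00000018445) and Agtr1a (ENSRNOG00000018346). The rule that chose them lists Ensembl gene IDs and uses no measured value, although the set was drawn up with earlier results of these data known, and all 4 were found among the 21549 gene IDs of the files. The files list IDs only, and the pairing of these 4 IDs with symbols comes from the list that defined the set. Hearts of Sprague Dawley rats, an outbred laboratory strain, aged 3 months, gave 4 libraries under the treatment Chronic hypoxia, in which animals live at lowered oxygen for an extended time, and 4 under Normoxia, whose titles call them controls. The protocol in the labels counts as many rats as libraries in each group, and 1 library was read as 1 rat. The labels do not say how low the oxygen was, for how long, whether males or females were used, or which chamber of the heart was taken.

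These genes set vessel tone by opposing routes. Edn1 encodes the precursor of endothelin-1, a strong vasoconstrictor peptide released mainly by endothelial cells. Nos3 encodes endothelial nitric oxide synthase, whose product nitric oxide relaxes smooth muscle. Agt encodes angiotensinogen, made above all by the liver and cut by renin and then by angiotensin-converting enzyme to angiotensin II, and Agtr1a encodes the main rodent type 1 receptor for angiotensin II. In the heart, endothelin-1 and angiotensin II are known for vasoconstriction and for growth signals to muscle cells and fibroblasts, and nitric oxide for vasodilation.

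Of the 4 genes, the receptor gene Agtr1a was lower in every hypoxic heart, at 0.652 of its normoxia level. Edn1 was higher on average but its groups overlapped and it did not pass the test, and Nos3 did not pass it either. Agt split the hypoxic hearts, with 2 below and 2 above the whole normoxia range. Thus 1 of the 4 genes passed, as lower in hypoxia, by the quasi-likelihood test of edgeR at a Benjamini-Hochberg adjusted p under 0.05 over all genes tested. Over all 14214 genes tested, 33.0% passed in either direction, 17.7% as higher and 15.3% as lower in hypoxia, and a count of 1 in 4 genes is too small to be set apart from either share. All 4 genes passed the filter on low counts.

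Library totals ran from 26229304 to 32160710 counts in hypoxia and from 28199908 to 31287841 in normoxia. Abundance is given as CPM, counts relative to a library total scaled by the trimmed mean of M values (TMM), and is used to compare libraries. Scaling by library totals alone shifted the median log2 fold change of all genes to −0.17, against 0.01 with TMM, so directions are relative to the TMM scaling. A further 94 genes of these pathways and of cell types, heart muscle cells included, had been listed by symbol, but 0 of the file IDs matched the gene table, so their values are not analysed here and the labelled tissue could not be checked against its markers.

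**Figure D1:**
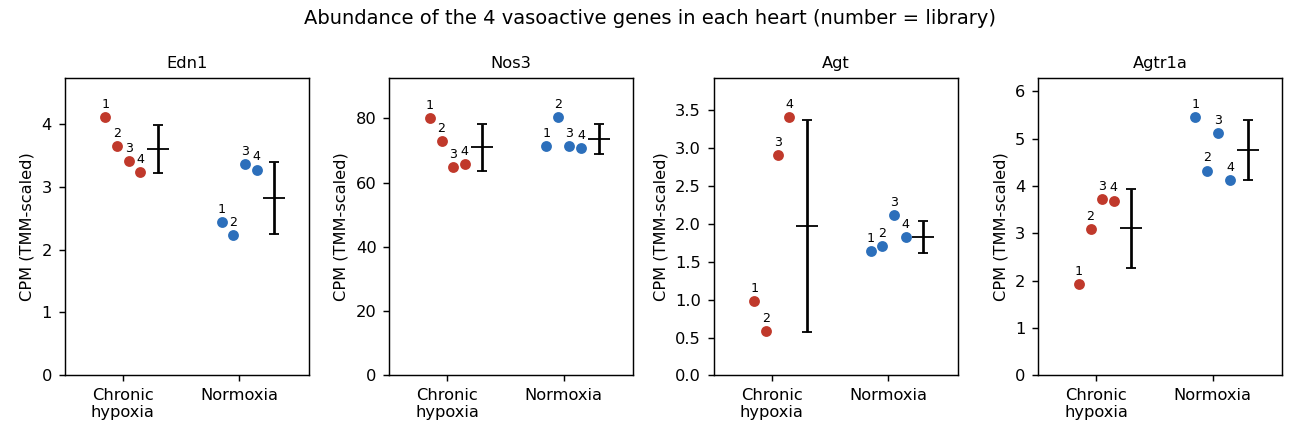
TMM-scaled CPM (y axis, starting at 0) of each gene in the 4 chronic hypoxia and 4 normoxia libraries, with numbers naming libraries and black bars giving mean ± SD. All 4 Agtr1a values of hypoxia lie below those of normoxia, Agt in hypoxia lies in part below and in part above the normoxia values, and the groups overlap for Edn1 and Nos3.

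The regions just upstream of the annotated starts of 3 of the 4 genes, Edn1, Nos3 and Agtr1a, were found in RefSeq (build GRCr8) and are shown because hypoxia-inducible factors, the transcription factors stabilised at low oxygen, are known to act through short sites in such regions. Each line gives the 250 bases before the start on the gene's strand. Capitals mark the core of a hypoxia response element, ACGTG or GCGTG on either strand, or the letters TATAAA on either strand. The Edn1 window is chr17:22666688-22666937, the Nos3 window chr4:11706582-11706831 and the Agtr1a window chr17:34435433-34435682, all on the minus strand.
Edn1: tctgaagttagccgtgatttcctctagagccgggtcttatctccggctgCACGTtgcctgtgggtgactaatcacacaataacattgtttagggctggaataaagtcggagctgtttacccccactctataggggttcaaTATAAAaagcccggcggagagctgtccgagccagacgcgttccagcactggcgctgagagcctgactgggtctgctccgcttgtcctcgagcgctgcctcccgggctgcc
Nos3: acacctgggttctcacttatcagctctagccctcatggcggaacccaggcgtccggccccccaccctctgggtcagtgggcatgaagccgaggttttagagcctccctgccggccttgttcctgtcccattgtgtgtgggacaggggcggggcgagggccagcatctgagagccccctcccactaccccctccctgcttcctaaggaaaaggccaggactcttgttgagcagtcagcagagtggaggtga
Agtr1a: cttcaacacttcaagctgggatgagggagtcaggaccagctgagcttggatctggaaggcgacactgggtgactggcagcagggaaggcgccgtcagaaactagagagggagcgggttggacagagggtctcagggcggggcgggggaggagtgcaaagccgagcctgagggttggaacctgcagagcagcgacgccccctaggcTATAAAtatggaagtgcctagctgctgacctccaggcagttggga
In the Edn1 window, ACGTG was present once, on the opposite strand, from 201 to 197 bases before the start, where it reads CACGT on the printed strand. TATAAA lay from 110 to 105 bases before the start in Edn1 and from 45 to 40 bases before it in Agtr1a. The Nos3 window held neither motif. Of the 33469 rat windows of the same length, 36.7% held a response element core and 12.9% held TATAAA. The matched motifs did not overlap, and a match describes the letters alone.

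Edn1, the endothelin-1 precursor, had 89 to 117 counts a library in hypoxia and 68 to 103 in normoxia. Its level was 4.10, 3.64, 3.41 and 3.23 CPM in hypoxia libraries 1 to 4, against 2.45, 2.23, 3.36 and 3.27 CPM in normoxia libraries 1 to 4. Hypoxia libraries 1 to 3 were above the whole normoxia range, hypoxia library 4 fell inside it, and normoxia libraries 1 and 2 were the lowest of all. The means were 3.60 ± 0.378 CPM in hypoxia and 2.83 ± 0.572 CPM in normoxia (SD, n = 4 each). The log2 fold change, hypoxia over normoxia, was 0.35 (SE 0.18), a fold of 1.27 with a 95% confidence interval of 0.969 to 1.67, and it did not pass the test (edgeR adjusted p = 0.155). Its size depended on the scaling, at 0.18 with library totals alone. It was also 0.18 with differences between libraries in their dependence on gene-model length removed. Without hypoxia libraries 1 and 2 together the log2 fold change was 0.23, and without hypoxia libraries 3 and 4 together it was 0.45.

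Nos3, endothelial nitric oxide synthase, was the most abundant of the 4 and the most precisely measured, with 1689 to 2287 counts in hypoxia and 2166 to 2449 in normoxia. Its level was 80.2, 73.0, 64.8 and 65.7 CPM in hypoxia libraries 1 to 4, against 71.4, 80.3, 71.4 and 70.9 CPM in normoxia libraries 1 to 4. Hypoxia libraries 3 and 4 were below the normoxia range, hypoxia libraries 1 and 2 lay within it, and the groups overlapped. The log2 fold change was −0.05 (SE 0.09), a fold of 0.965 with a 95% confidence interval of 0.839 to 1.11 (edgeR adjusted p = 0.692). The estimate was −0.22 with library totals alone and 0.13 with the length correction, and neither passed. In the gene table, of build GRCr8, Nos3 overlaps Atg9b, an autophagy gene, while the submitters' build was rn6. The strands of overlapping genes were not compared, and the strand setting of the counting is not given. Reads of the overlap therefore cannot be assigned.

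Agt, the angiotensin precursor, was on average the least abundant per length of the 4 and varied most between hypoxic hearts. It had 28, 17, 76 and 95 counts, or 0.982, 0.589, 2.91 and 3.41 CPM, in hypoxia libraries 1 to 4. In normoxia libraries 1 to 4 it had 55, 52, 65 and 56 counts, or 1.64, 1.71, 2.12 and 1.83 CPM. Every hypoxic heart was thus outside the normoxia range, with libraries 1 and 2 below it and libraries 3 and 4 above it. The highest hypoxic value was 5.79 times the lowest, against 1.29 times in normoxia. The coefficient of variation was 70.7% in hypoxia and 11.6% in normoxia, where counting error alone would give 13.6% and 13.2%. In hypoxia the SD of log2 CPM was 1.17, larger than in 98.3% of the genes tested, and in normoxia it was 0.16, larger than in 61.2%.

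With the hypoxic hearts on both sides of normoxia, the mean difference in Agt carried little information. The means were 1.97 ± 1.40 CPM in hypoxia and 1.82 ± 0.212 CPM in normoxia (SD, n = 4 each). The log2 fold change was 0.11 (SE 0.47), a fold of 1.08 with a 95% confidence interval of 0.525 to 2.22 (edgeR adjusted p = 0.878). The difference between the mean log2 CPM of the groups had the other sign, at −0.20, and the direction turned with single libraries, at −0.30 when hypoxia library 4 was left out and 0.41 when hypoxia library 2 was. The same libraries parted across the transcriptome. On the second principal component of log2 CPM, hypoxia libraries 1 and 2 lay at 37.9 and 29.8, hypoxia libraries 3 and 4 at −29.3 and −27.9, and the normoxia libraries between −8.10 and 1.01. Hypoxia libraries 1 and 2 also had the fewest genes with at least 1 count, 17480 and 17485, against 17914 and 18008 in hypoxia libraries 3 and 4 and 18016 to 18125 in normoxia. The part of these differences in the Agt values was not tested. In the GRCr8 gene table Agt overlaps Cog2 and Capn9, a Golgi trafficking gene and a calpain protease gene. Its counts carry the same limits on build and strand as those of Nos3.

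Agtr1a, the angiotensin II type 1a receptor, fell in hypoxia. Its level was 1.93, 3.08, 3.72 and 3.70 CPM in hypoxia libraries 1 to 4, against 5.46, 4.33, 5.12 and 4.12 CPM in normoxia libraries 1 to 4. The highest hypoxic heart was below the lowest normoxic one, and hypoxia library 1 was the lowest of all. Its counts were 55, 89, 97 and 103 in hypoxia libraries 1 to 4, against 183, 132, 157 and 126 in normoxia libraries 1 to 4. Counting error alone would give a coefficient of variation of 10.8% in hypoxia and 8.18% in normoxia. The gap between the groups, from 3.72 to 4.12 CPM, was of about the size of that error, so the separation of the ranges was narrow. The lowest values, in hypoxia libraries 1 and 2, came from the same libraries that stood apart on the second principal component and in genes with a count, and the part of those differences in the Agtr1a values was not tested. Without hypoxia libraries 1 and 2 together the log2 fold change was −0.37, and without hypoxia libraries 3 and 4 together it was −0.93. Ranges lay apart with hypoxia lower in 17.1% of the genes tested. The means were 3.11 ± 0.838 CPM in hypoxia and 4.76 ± 0.634 CPM in normoxia (SD, n = 4 each). The log2 fold change was −0.62 (SE 0.21), a fold of 0.652 with a 95% confidence interval of 0.473 to 0.901 (edgeR adjusted p = 0.0453). In bulk heart tissue, fewer cells that express a gene and less RNA per cell cannot be told apart. Rats carry a closely related second gene, Agtr1b, and the labels do not say how reads shared between the copies were counted.

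The call of Agtr1a stood close to its threshold, although its direction was the same in every alternative run. A two-sided exact permutation test on log2 CPM gave p = 0.0286, the smallest p that 4 against 4 libraries allow. With 1 library left out the log2 fold change ran from −0.72 to −0.45, and the call was lost in 6 of 8 cases, each a fit with fewer libraries. With hypoxia library 1 left out the edgeR adjusted p was 0.0521, and with hypoxia library 2 left out it was 0.0709. It was 0.118, 0.0712, 0.109 and 0.0626 without normoxia libraries 1 to 4. The adjusted p was 0.0845 with the replicate number as a block. The fall was −0.80 with library totals alone and −0.64 with the length correction, and it passed in both (edgeR adjusted p = 0.0144 and 0.0456).

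**Figure D2:**
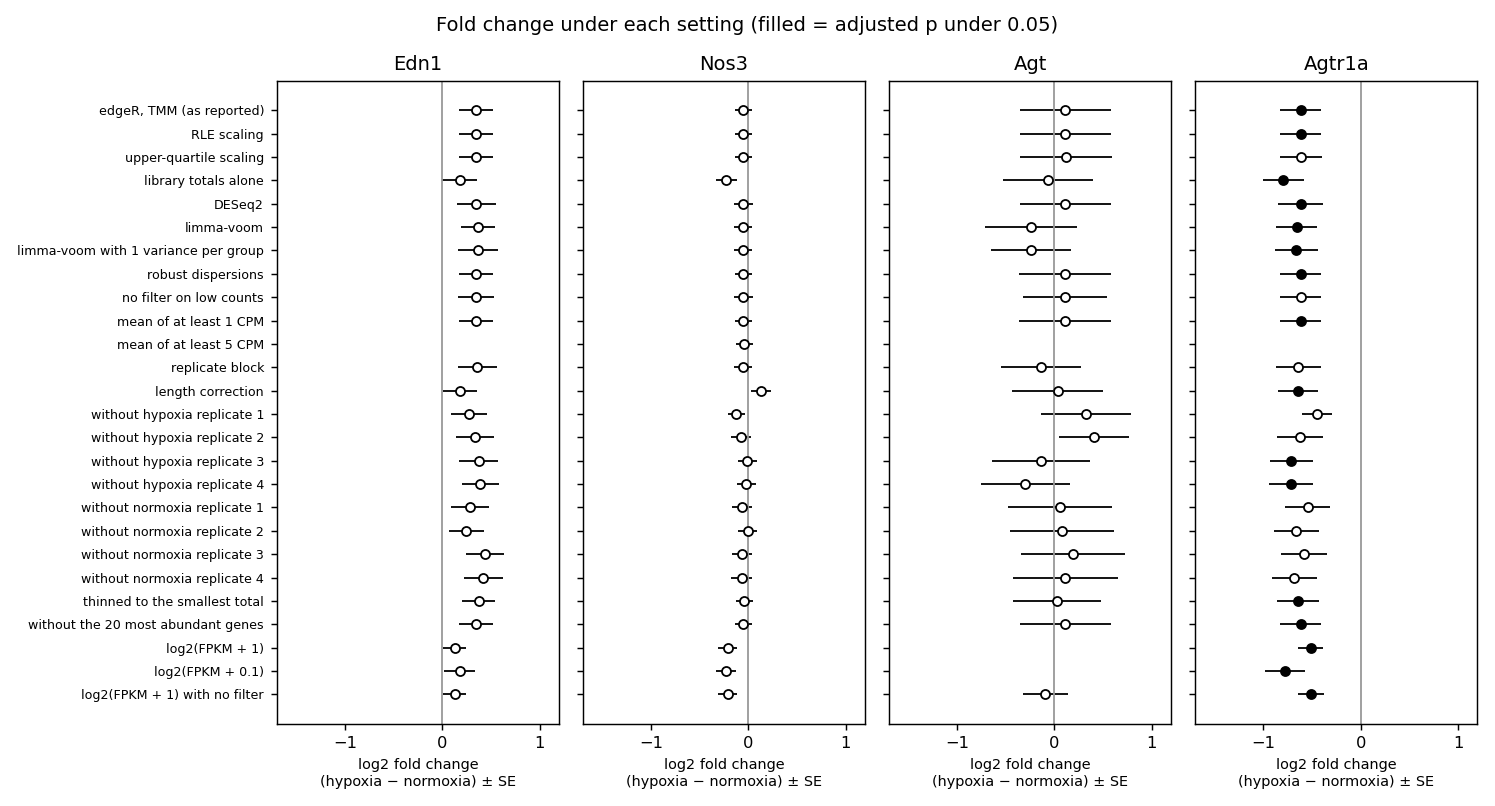
Log2 fold change ± SE (x axis, hypoxia minus normoxia) of each gene under the settings listed on the y axis, with filled points for an adjusted p under 0.05 and no point where a filter left the gene out. Agtr1a lies below 0 throughout, Edn1 above 0 with no filled point, and Nos3 and Agt have points on both sides of 0.

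Compared per length, the genes kept a wide spread of levels. FPKM, the count scaled by library total and gene-model length, was used for this. The lengths were 1390 bp for Edn1, 5383 bp for Nos3, 1933 bp for Agt and 2183 bp for Agtr1a. Being without TMM scaling, FPKM carries the shift between groups given above for library totals, so it is used to compare genes within a group. Nos3 was the highest in all 8 libraries, at 12.4 ± 1.56 FPKM in hypoxia and 14.5 ± 1.12 FPKM in normoxia (SD, n = 4 each). That level was above 73.3% of the genes tested in hypoxia and above 74.3% in normoxia. The mean FPKM of the other 3 was above 18.5% to 33.7% of the genes tested in hypoxia and above 18.2% to 30.4% in normoxia. Edn1 had 2.44 ± 0.339 FPKM in hypoxia and 2.16 ± 0.408 FPKM in normoxia. Agtr1a had 1.34 ± 0.358 FPKM in hypoxia and 2.32 ± 0.335 FPKM in normoxia, and Agt had 0.962 ± 0.673 FPKM in hypoxia and 1.00 ± 0.116 FPKM in normoxia. By these means Edn1 came next after Nos3 in hypoxia, and Agtr1a did in normoxia.

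Neighbours in this order were separated differently in the groups. Edn1 was above Agtr1a in each of the 4 hypoxic hearts, where their FPKM ranges of 2.08 to 2.89 and 0.866 to 1.69 lay apart. In normoxia the ranges of Edn1, 1.73 to 2.58, and of Agtr1a, 1.94 to 2.68, overlapped, with Edn1 the higher in libraries 3 and 4 and Agtr1a in libraries 1 and 2. Agt was the lowest in hypoxia libraries 1 to 3 and in all 4 normoxia libraries. In hypoxia library 4 it stood at 1.58 FPKM, just above Agtr1a at 1.51 FPKM, and the ranges of Agt and Agtr1a overlapped in hypoxia.

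**Figure D3:**
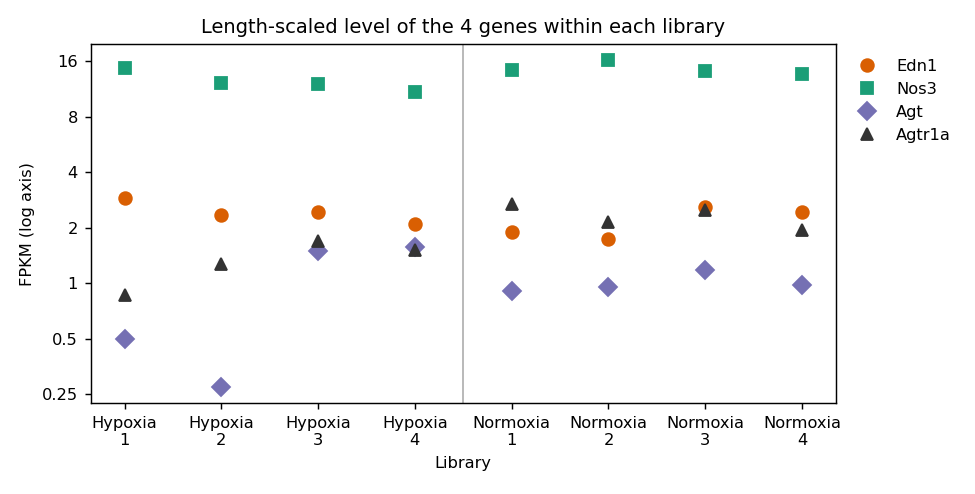
FPKM (y axis, log scale) of Edn1, Nos3, Agt and Agtr1a in each library (x axis, hypoxia libraries 1 to 4 and then normoxia libraries 1 to 4). Nos3 is highest in all 8 libraries, Edn1 lies above Agtr1a in all 4 hypoxia libraries, and Agt ranges from 0.273 to 1.58 FPKM in hypoxia.

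Ratios between the genes within a library do not depend on scaling each library by a single factor, though a correction by gene length can change them. The 6 pairs were compared between the groups by two-sided exact permutation tests. The log2 ratio of Edn1 to Agtr1a counts was 1.08, 0.24, −0.12 and −0.19 in hypoxia libraries 1 to 4, against −1.15, −0.95, −0.61 and −0.33 in normoxia libraries 1 to 4. All 4 hypoxic values were above all 4 normoxic ones, and the mean difference of 1.01 on the log2 scale corresponds to a 2.02-fold higher ratio in hypoxia (exact permutation p = 0.0286, adjusted over the 6 pairs p = 0.0857). Counting error alone would give these ratios an SD of 0.22 in hypoxia and 0.20 in normoxia. The gap between the groups, from −0.33 to −0.19, was smaller than either. Agtr1a alone already separated the groups, with a log2 fold change of −0.62, beside 0.35 for Edn1. How often pairs of genes lie apart by this measure was not computed. The ligand and receptor belong to different systems, so the ratio compares 2 levels and no single pathway.

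The ratio of Edn1 to Nos3, the endothelial constrictor precursor against the endothelial dilator enzyme, also separated the groups. Its log2 value was −4.28, −4.32, −4.24 and −4.34 in hypoxia libraries 1 to 4, against −4.86, −5.16, −4.40 and −4.43 in normoxia libraries 1 to 4. The mean difference was 0.42, a 1.34-fold higher ratio in hypoxia (exact permutation p = 0.0286, adjusted over the 6 pairs p = 0.0857). With the length correction, the separate log2 fold changes were 0.18 for Edn1 and 0.13 for Nos3, against 0.35 and −0.05 without it. The ratio was not tested with that correction. The 4 hypoxic ratios lay closer together than counting error alone would give, with an SD of 0.04 against 0.15. The normoxic ones had an SD of 0.36 against 0.16. The gap between the groups, from −4.40 to −4.34, was smaller than either counting SD. Both p-values are the smallest the design allows. With only these ratios of the 6 pairs at that p, neither could pass 0.05 once adjusted.

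The other 4 ratios did not separate the groups. The log2 ratio of Nos3 to Agtr1a averaged 4.55 ± 0.58 in hypoxia and 3.95 ± 0.24 in normoxia (SD, n = 4 each; exact permutation p = 0.114, adjusted p = 0.229). The 3 ratios that include Agt had an SD of 1.00 to 1.33 in hypoxia and 0.19 to 0.25 in normoxia, and their exact permutation p-values ran from 0.429 to 0.829. The log2 ratio of Agt to the receptor gene was −0.96, −2.35, −0.35 and −0.12 in hypoxia libraries 1 to 4, against −1.73, −1.34, −1.27 and −1.16 in normoxia libraries 1 to 4. Hypoxia library 2 was below the normoxia range and the other 3 hypoxic hearts were above it.

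**Figure D4:**
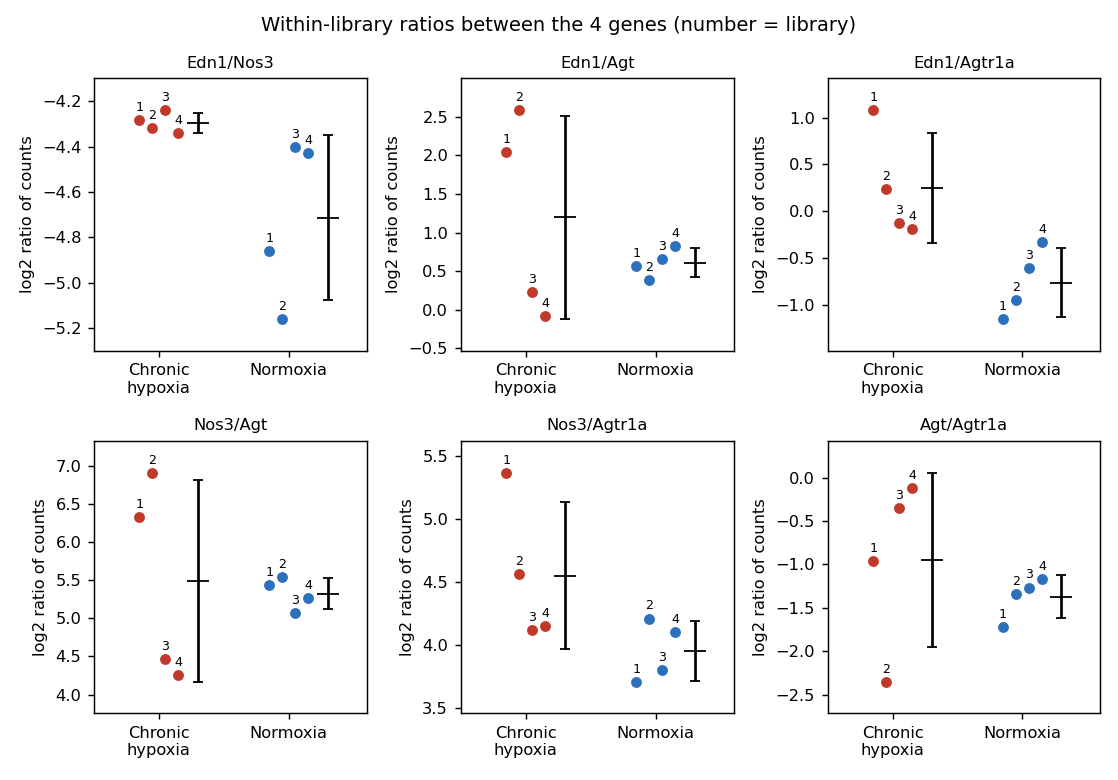
Log2 ratio of counts (y axis, separate range in each panel) between each pair of genes in the 4 chronic hypoxia and 4 normoxia libraries, with numbers naming libraries and black bars giving mean ± SD. The groups lie apart for Edn1/Nos3 and Edn1/Agtr1a and overlap in the other 4 panels.

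Genes with the most similar pattern were sought by Pearson's r of log2 CPM over the 8 libraries, which holds both the group difference and the spread within groups. For Agtr1a the closest was ENSRNOG00000017954, with a gene model of 1305 bp (r = 0.986), at 0.842 ± 0.255 CPM in hypoxia and 1.30 ± 0.141 CPM in normoxia (SD, n = 4 each). Of the 14213 other genes tested, 23 reached an r of 0.95 with Agtr1a and 13 with Agt. For Agt the closest was ENSRNOG00000010887, of 2489 bp (r = 0.979). Its level was 7.47, 6.86, 9.24 and 9.72 CPM in hypoxia libraries 1 to 4, against 8.50, 8.40, 9.36 and 8.64 CPM in normoxia libraries 1 to 4, so that hypoxia libraries 1 and 2 were again the lowest and library 4 the highest. For Edn1 the closest was ENSRNOG00000033030, of 582 bp (r = 0.963), at 11.6 ± 0.891 CPM in hypoxia and 9.63 ± 0.895 CPM in normoxia (SD, n = 4 each). For Nos3 the highest r was 0.961, reached by a gene not printed here. None of these 4 genes passed the test of hypoxia against normoxia, with edgeR adjusted p from 0.0622 to 0.704. With 8 libraries and 14213 genes searched, high values of r arise readily, and they describe these libraries alone.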

How the data were processed

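RNA was sequenced from 4 hypoxic and 4 normoxic hearts. The authors deposited read counts per Ensembl gene, whole numbers that were not normalized, and FPKM values, which equal counts scaled by library total and gene-model length. Dividing one by the other returned 1 whole length per gene in 100% of values above 0 (relative tolerance 0.001). Per the submitters' processing notes, the tools included HISAT2 2.1.0, Bowtie2 2.2.3 and HTSeq 0.6.0 with bcl2fastq, and the build was rn6. The role of each tool, the annotation release and the strand setting are not given in the sources.

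Counts were fitted in edgeR 4.0.16 (R 4.3.3) with filterByExpr (minimum count 10), TMM scaling, group as the only term and the quasi-likelihood test. P-values were adjusted by Benjamini-Hochberg over all 14214 genes tested. The SE came from the test statistic, and log2 CPM used a prior count of 2. Ratios used counts + 0.5 and two-sided exact permutation tests over 70 assignments (scipy 1.17.1). The counting coefficient of variation is 1 over the square root of the mean count. Intervals of counting error cover counting alone. Alternatives used DESeq2 1.42.0, limma 3.58.1, other scalings and filters, a lowess length correction (span 0.3), a replicate block and left-out libraries. The same fit was also run on simulated counts, built from the means, dispersions and library sizes of these data. Its outcome is not given here. The 4 genes, the lists and most tests were chosen with earlier results of these data known. The rule for named genes took the 4 genes, list genes that could be matched, and for each gene the 1 most alike by ID, with at most 2 IDs in each direction.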

Additional observations from a re-analysis of the deposited data

Results flagged for a closer look

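Among the normoxia hearts, library 2 had a distant value of Nos3, at a log2 CPM of 6.33 against 6.15 to 6.16, with a gap to its nearest neighbour of 0.938 of the group's range. It was the 1 such value among 20 groups of 4 checked, and chance alone marks about 1 in 20. Without this library the log2 fold change of Nos3 was −0.01. Nos3 did not pass the test with this library (edgeR adjusted p = 0.692) or without it (edgeR adjusted p = 0.963).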

How the results depend on the processing

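Over all genes tested, 4693 were called, and each of 27 alternatives gave a number within 1.5 times of it, with 3315 to 4758 when 1 library was left out. Scaling by library totals turned the split to 1426 higher and 3870 lower, against 2516 and 2177 with TMM, and log2(FPKM + 1) gave 1195 and 3704. Agtr1a kept its direction throughout, and its call was lost under upper-quartile scaling (−0.61, adjusted p = 0.0506), no filter on low counts (−0.62, adjusted p = 0.0507) and the replicate block (−0.64). With 1 library left out it ran from −0.72 to −0.45, Edn1 from 0.25 to 0.44, Nos3 from −0.12 to −0.01 and Agt from −0.30 to 0.41. Nos3 turned to 0.13 with the length correction and 0.053 without hypoxia libraries 3 and 4 together. Agt turned to −0.064 with library totals alone, −0.24 in limma-voom, −0.24 in limma-voom with 1 variance per group, −0.14 with the replicate block, −0.10 in log2(FPKM + 1) with no filter and −0.20 as a difference of mean log2 CPM. Without hypoxia libraries 1 and 2 together, Agt was 0.78, Agtr1a −0.37, Edn1 0.23 and Nos3 −0.18. Without hypoxia libraries 3 and 4 together, Agt was −1.22, Agtr1a −0.93 and Edn1 0.45. These pairs were chosen from how the libraries part across the transcriptome, so no test is read from them. With 1 library left out, the log2 ratio of Nos3 to Agt ran from −0.31 to 0.58, that of Edn1 to Nos3 from 0.27 to 0.52 and that of Edn1 to Agtr1a from 0.73 to 1.16. The cause of these changes was not tested. Same-numbered libraries of the 2 groups shared little deviation, with correlations of −0.0847 to 0.0187, which cannot show whether the animals were paired. The block gave 3841 calls. A mean of at least 5 CPM left out Edn1, Agt and Agtr1a, and a mean FPKM of at least 1 left out Agt. The alternatives for the pathway lists were not run, as their genes could not be matched. At 17 to 95 counts a library in hypoxia, Agt had the largest counting error of the 4 genes. That error was 13.6%, well below its coefficient of variation of 70.7% there.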
